A study of Homo sapiens with 6 samples.

Results

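The genes considered here were the expressed neighbours of PTCH1 on the long arm of chromosome 9, as read in the adrenocortical carcinoma cell line H295R. The window ran from chr9:92325484-107013634 (GRCh38) and held 269 of the 57342 genes of the table. Of these, 13 were left out by name, namely PTCH1, ASPN, OGN, OMD, ECM2, COL15A1, FOXE1, TGFBR1, NR4A3, ABCA1 and the genes with LINC names, and 166 of the others had fewer than 60 counts over the 6 libraries. The remaining 90 genes, 75 with a gene symbol and 15 known by the name of a genomic clone, are the members. The stretch was chosen because most of its genes were lower in 1 group of libraries, so its shift between the groups is a description of these libraries and not a test.

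RNA was sequenced from 3 replicates of parental H295R cells, a line derived from a human adrenocortical carcinoma that makes steroids, and from H295R-PM-Ptc+ cells, also in 3 replicates. H295R-PM-Ptc+ cells were sorted from the parental line by flow cytometry for Ptch1 on the cell surface and then amplified, and are described as 1 sorted population. Both were grown in the same medium, without drug. The study sequenced them to characterise the sorted cells, in which Ptch1, the receptor of the Hedgehog pathway, was the sorting marker.

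Libraries are named below as the deposited labels name them. The study tabulated 6 columns of normalised values. After scaling and for the genes that could be compared, these are the deposited columns under the other group name. The direction of every difference between the groups therefore depends on which names hold, and each such sign below turns if the names are exchanged. The replicate numbers are the same under both sets of names, so signs of replicate 1 against the other replicates stay as given. Counts on genes ran from 23264403 to 25813247 per library. Groups differed along the first principal component (45.7% of the variance) and replicate 1 of both groups from the other replicates along the second (27.6%). Of 9 adrenocortical markers, 8 had over 10 counts in every library, while CYP11B1 had at most 3, and their summed level ran from 953 to 1214 CPM, counts of the gene per 1000000 of the library, in the libraries labelled H295R and from 1058 to 1331 CPM in those labelled H295R-PM-Ptc+. Of 8 markers of other cell types, PTPRC, CD68 and LUM were at 0 in all libraries, and the summed level of the 8 was 8.35 to 9.83 CPM against 10.7 to 12.2 CPM. The part of these differences in the results below was not tested.

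Genes that lie side by side on a chromosome mostly do not share a function, and what they share is their DNA: the same chromosome copies, the same replication and often the same domain of chromatin. Some neighbours share more, since a pair of genes that start close together on opposite strands can be driven from a common stretch of promoter. The region around PTCH1 is known from the nevoid basal cell carcinoma syndrome, in which PTCH1 is mutated, and it holds FANCC and XPA, genes of the Fanconi anaemia pathway and of nucleotide excision repair.

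Among the members, 6 pairs started head to head within 1000 bases of each other without overlapping in the deposited annotation, and 4 of the spacers between them are shown, those of at most 300 bases for which both genes carry a symbol, because the paired genes can be followed together in the values below. They are given on the plus strand of hg38, with CCGGAAG, a core bound by ETS factors, and the CCAAT box in capitals where either occurs on either strand. The spacer of TSTD2 and NCBP1 is chr9:97633576-97633625, that of ALG2 and SEC61B chr9:99221957-99222063, that of ERP44 and INVS chr9:100099041-100099255 and that of MRPL50 and ZNF189 chr9:101398615-101398872.
TSTD2/NCBP1: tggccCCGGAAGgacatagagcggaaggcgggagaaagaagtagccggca
ALG2/SEC61B: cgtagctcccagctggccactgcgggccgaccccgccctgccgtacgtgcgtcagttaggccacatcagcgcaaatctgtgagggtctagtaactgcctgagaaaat
ERP44/INVS: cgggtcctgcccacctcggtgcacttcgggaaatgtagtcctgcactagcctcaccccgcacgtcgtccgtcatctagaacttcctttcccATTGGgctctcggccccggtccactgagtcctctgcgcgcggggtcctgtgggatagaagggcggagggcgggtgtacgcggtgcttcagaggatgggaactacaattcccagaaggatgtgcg
MRPL50/ZNF189: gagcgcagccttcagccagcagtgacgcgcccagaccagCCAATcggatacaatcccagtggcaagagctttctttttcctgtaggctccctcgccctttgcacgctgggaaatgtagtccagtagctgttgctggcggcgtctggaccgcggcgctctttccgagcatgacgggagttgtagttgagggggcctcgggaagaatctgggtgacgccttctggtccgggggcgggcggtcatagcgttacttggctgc

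The 250 bases before the RefSeq start are shown for ZNF367, the member with the smallest adjusted p among those lower in libraries labelled H295R-PM-Ptc+, and for GRIN3A, a member with 48213 counts in all that was higher there (GRCh38.p14, each on the strand of its gene). Capitals mark CCAAT and TTTCCCGC, a core bound by E2F factors, on either strand. ZNF367 is chr9:96418371-96418620 on the minus strand and GRIN3A chr9:101738648-101738897, also minus.
ZNF367: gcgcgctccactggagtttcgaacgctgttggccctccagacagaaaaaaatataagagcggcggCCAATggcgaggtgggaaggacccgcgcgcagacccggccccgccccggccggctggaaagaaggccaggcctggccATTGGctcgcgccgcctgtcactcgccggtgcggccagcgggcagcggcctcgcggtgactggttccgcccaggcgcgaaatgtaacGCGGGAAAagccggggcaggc
GRIN3A: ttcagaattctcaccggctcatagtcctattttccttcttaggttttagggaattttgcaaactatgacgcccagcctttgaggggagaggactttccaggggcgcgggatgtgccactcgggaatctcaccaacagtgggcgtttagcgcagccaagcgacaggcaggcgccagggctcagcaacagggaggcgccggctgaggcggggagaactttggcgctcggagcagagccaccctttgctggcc

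PTCH1, the landmark of the stretch, had 441, 559 and 579 counts in the libraries labelled H295R and 248, 326 and 319 in those labelled H295R-PM-Ptc+. The groups did not overlap, and the fitted log2 fold change, written throughout as H295R-PM-Ptc+ against H295R, was −0.81 (SE 0.147). The transcript was lower in libraries labelled for the cells sorted on surface Ptch1, and would be higher in them under the exchanged names. Around it, the members were mostly lower in libraries labelled H295R-PM-Ptc+ by a small amount. Of 89 members tested, 72 had a log2 fold change below 0 and 17 above, which is 80.9% lower, against 49.8% of all 16710 genes tested. Their median log2 fold change was −0.17, with quartiles of −0.31 and −0.04 and a range of −0.89 to 0.55, while the median of all genes was 0.00. In the 3 pairs of libraries with the same replicate number, 55 members were lower each time, which is 61.8% of those tested against 25.7% of all genes, and 7 were higher each time. With bulk RNA, fewer cells that carry a transcript and less of it per cell cannot be told apart.

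The shift was carried by all 6 libraries. The median over members of log2 CPM minus each gene's mean was 0.03, 0.16 and 0.08 in the libraries labelled H295R and −0.12, −0.05 and −0.08 in those labelled H295R-PM-Ptc+. Every library of the first group lay above every library of the second, and the difference of −0.17 compared with a spread of 0.053 (SD) between libraries of a group. Over the rest of chromosome 9 the same difference was −0.05, and over all genes 0.00. As shares of a library, the members together took 0.559, 0.584 and 0.578% of the counts labelled H295R and 0.507, 0.527 and 0.536% of those labelled H295R-PM-Ptc+.

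**Figure D1:**
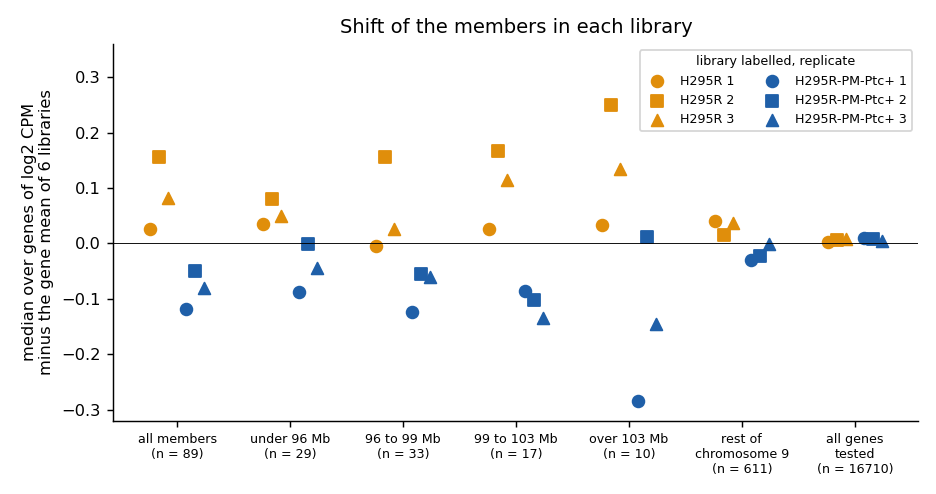
Median over genes of log2 CPM minus the gene's mean of 6 libraries (y axis, log2 units), for all members, 4 parts of the window, the rest of chromosome 9 and all genes tested (x axis), with 1 point per library, orange for H295R and blue for H295R-PM-Ptc+. For all members the orange points sit at 0.03 to 0.16 and the blue points at −0.12 to −0.05, while over all genes the 6 points lie together near 0.

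Single members rarely passed the test at 3 libraries a group. With edgeR's quasi-likelihood test, adjusted by Benjamini-Hochberg over all genes tested, 5 members were called lower and 0 higher at an adjusted p under 0.05, against 1.32% of all genes called lower and 2.42% called higher. At an unadjusted p under 0.05 there were 26 members in either direction, against 17.3% of all genes, and DESeq2 called 9 lower and 0 higher, against 2.08 and 3.37%. Leaving out replicate 2 or replicate 3 of either group turned the 5 lower calls into 0, against 0.334 to 0.475% of all genes called lower. Without replicate 1 of H295R-PM-Ptc+ there were 3 lower calls, against 0.819%. These were MSANTD3 and ZNF367, of the 5, and NIPSNAP3A, which was not. GRIN3A was called higher in that fit, against 1.71% of all genes. Without replicate 1 of H295R there were 7 lower calls, against 1.65% of all genes, and NIPSNAP3B was not among them. In the 4 fits with 0 calls the log2 fold change of ZNF367 lay between −0.47 and −0.41 and that of SLC44A1 between −0.36 and −0.32. Libraries with the same replicate number deviated together, and with the replicate number as a block edgeR called 36 members lower and 1 higher, against 10.4 and 12.1% of all genes. Without replicate 1 of both groups, which lay apart from the others, it called 20 lower and 1 higher, against 5.34 and 6.67% of all genes. In CPM, the groups did not overlap for 28 members that were lower and 3 that were higher, where 11.2 and 12.4% of all genes did so, and they overlapped for 58. Since the members were selected on this contrast, nothing is read from these shares.

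The 5 called members were ZNF367, TEX10, MSANTD3, SLC44A1 and NIPSNAP3B. ZNF367, a zinc finger transcription factor (chr9:96385941-96418329, minus strand), had 2913, 3053 and 3204 counts in the libraries labelled H295R and 2151, 2375 and 2202 in those labelled H295R-PM-Ptc+. In CPM this is 123.9 ± 5.0 against 91.6 ± 6.5 (SD, n = 3 each), and the log2 fold change was −0.44 (SE 0.080, edgeR adjusted p = 0.021). TEX10, part of a complex that acts in ribosome maturation, had 2232, 2708 and 2540 counts against 1938, 1889 and 1796. Its libraries labelled H295R-PM-Ptc+ lay close together at 76.5 ± 0.98 CPM, below all of the others at 100.9 ± 6.8 CPM, and the log2 fold change was −0.40 (SE 0.076, edgeR adjusted p = 0.025). MSANTD3, a protein with a Myb-like DNA-binding domain, was next along the chromosome, with 1289, 1384 and 1265 counts against 1112, 989 and 863 and a log2 fold change of −0.40 (SE 0.081, edgeR adjusted p = 0.030). SLC44A1, a choline transporter with 52728 counts in all, went from 398 ± 9.1 to 316 ± 10.7 CPM (SD, n = 3 each), or 9521, 10351 and 9626 against 8377, 7650 and 7203 counts. Its log2 fold change was −0.34 (SE 0.071, edgeR adjusted p = 0.038), and its groups were far apart for their spread. NIPSNAP3B, of a family of mitochondrial proteins, had the fewest reads of the 5, with 321, 282 and 244 counts against 173, 193 and 181 and a log2 fold change of −0.62 (SE 0.139, edgeR adjusted p = 0.045). Its call ended with limma-voom (adjusted p = 0.051), with at least 10 counts asked of every library (edgeR adjusted p = 0.055) and without H295R replicate 1 (−0.50, edgeR adjusted p = 0.054). It also ended without H295R-PM-Ptc+ replicate 1 (−0.56, edgeR adjusted p = 0.12). In that fit TEX10 (edgeR adjusted p = 0.054) and SLC44A1 (edgeR adjusted p = 0.052) lost their calls too. Without replicate 2 or 3 of either group all 5 calls ended. None of the 5 had overlapping groups. MSANTD3 shares part of its span with a readthrough transcript on the same strand, and ZNF367 with a clone-named gene on the other strand, so a part of their reads may be split.

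**Figure D2:**
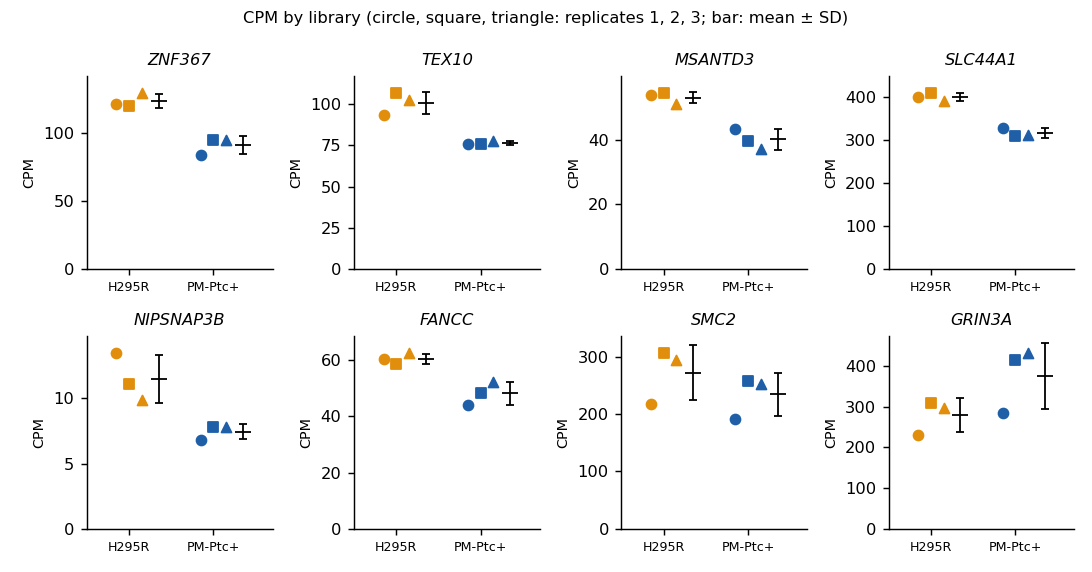
CPM (y axis, from 0) of 8 members in each library, orange for H295R and blue for H295R-PM-Ptc+, with circles, squares and triangles for replicates 1, 2 and 3 and bars for mean ± SD (n = 3). The 5 called members and FANCC show separate groups, whereas SMC2 and GRIN3A overlap because replicate 1 lies low in both groups.

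By position, the median of the members was lower towards the far end of the window. With the window split into 4 parts, 21 of 29 members of the first part were lower with a median log2 fold change of −0.12, 27 of 33 of the second with −0.17, 15 of 17 of the third with −0.20, and 9 of 10 of the last with −0.28. The longest unbroken series of lower members held 19 genes from GABBR2 to RNF20 and the next 16 genes from FANCC to HIATL2, with a less even stretch from CTSV to TBC1D2 between them. A further series of 9 ran from RP11-82L2.1 to TMEM38B, close to the far edge. The edges themselves showed little, since CENPP, the first member, had a log2 fold change of −0.04 and ZNF462, the last, one of 0.02.

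The lower values did not stop at the edges of the window. The 3 nearest tested genes before it, NOL8, IARS and SPTLC1, had log2 fold changes of −0.14, −0.06 and −0.06, and the 3 nearest after it, RAD23B, KLF4 and IKBKAP, had −0.09, 0.16 and −0.16. Of the 20 tested genes before the window 75% were lower, with a median log2 fold change of −0.14, and of the 20 after it also 75%, with −0.08. On the long arm outside the window 68.5% of 432 genes were lower with a median of −0.08, and on the short arm 50.8% of 179 genes with a median of −0.00. Chromosome 9 as a whole had the lowest median of the chromosomes at −0.07 over 710 genes, followed by chromosome 3 at −0.05, whereas chromosome 19 had the highest at 0.08, an order that turns round if the group names are exchanged. A running median over 25 tested genes was lowest inside the window, at −0.24 at a distance of 3.49 Mb from the start of PTCH1, and elsewhere on chromosome 9 ran from −0.20 to 0.09.

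**Figure D3:**
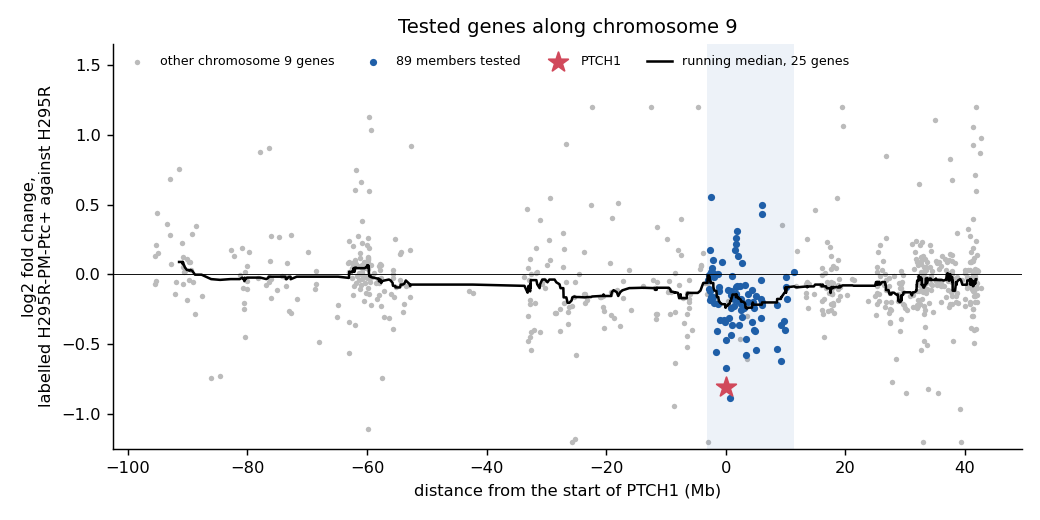
Log2 fold change (y axis) of the 710 tested genes of chromosome 9 against distance from the start of PTCH1 in Mb (x axis), with members in blue, other genes in grey, PTCH1 as a star and the running median over 25 genes as a line. The shaded window runs from −3.19 to 11.5 Mb, where the line is at −0.24 to −0.01, and 9 genes, none of them members, lie beyond 1.2 in size and are drawn at that limit.

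The members beside PTCH1 did not move as 1 block. C9orf3, an aminopeptidase gene whose span holds the miR-23b, miR-27b and miR-24-1 hairpins, had 2557, 2781 and 2652 counts in the libraries labelled H295R and 3086, 2767 and 2609 in the others, with a log2 fold change of 0.09 (SE 0.070). Its direction was the opposite of that of FANCC, its neighbour on the PTCH1 side, which had 1440, 1486 and 1542 counts against 1122, 1204 and 1209, or 60.4 ± 1.9 against 48.2 ± 4.2 CPM (SD, n = 3 each). The log2 fold change of FANCC was −0.33 (SE 0.083, edgeR adjusted p = 0.071, and 0.00049 with the replicate block). The clone-named RP11-435O5.2 between FANCC and PTCH1 stood at −0.34. Inside PTCH1 and on its other strand, RP11-435O5.5 had 71, 68 and 51 counts against 51, 34 and 34, a log2 fold change of −0.67 close to that of PTCH1, and RP11-435O5.4 had −0.47 with overlapping groups. Counting was stated to use strand, but how far reads of PTCH1 reach these antisense genes was not tested. ERCC6L2, a helicase-like gene of DNA repair and the first symbol beyond PTCH1, was within its spread at −0.12 (SE 0.129).

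Grouped by role, the shift was seen in most groups. With the replicate block 36 of all 89 members were called lower, and differences between the role lists were not tested. The 8 genes of genome maintenance and chromatin were all below 0, with a median log2 fold change of −0.21. There were 0 calls, against 1.32% of all genes called lower, and 5 with the replicate block, against 10.4%. XPA, which recognises bulky DNA lesions, had 540, 674 and 534 counts against 455, 476 and 419 and a log2 fold change of −0.36 (SE 0.100, edgeR adjusted p = 0.089). SMC2, a core subunit of condensin, had 5174, 7760 and 7279 counts against 4889, 6414 and 5850, and its groups overlapped because replicate 1 was low in both. Within each same-numbered pair SMC2 was lower, and its log2 fold change was −0.22 (SE 0.153, adjusted p = 0.53, and 0.0015 with the block). RNF20, the ligase that ubiquitinates histone H2B, also had overlapping groups and was lower in each pair, at −0.22, whereas CDC14B, a phosphatase, was at −0.01 and CENPP, a centromere protein, at −0.04.

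Of 10 genes of glycosylation and the secretory pathway, all were below 0, with a median log2 fold change of −0.19. There were 0 calls, against 1.32% of all genes called lower, and 7 with the block, against 10.4%. STX17, a SNARE protein of autophagosomes, was at −0.11 and NANS at −0.21, while GALNT12, a transferase that starts mucin-type O-glycans, was lowest of the list at −0.46. SEC61B, a subunit of the channel through which new proteins enter the endoplasmic reticulum, had 4217, 3751 and 3856 counts against 4035, 3303 and 2974 and a log2 fold change of −0.20. NANS, the synthase of sialic acid, had 4369, 3723 and 3723 counts against 3882, 3207 and 3108. In both genes replicate 1 was the highest library of its group.

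Of 7 genes of RNA processing and translation, all were also below 0, with a median of −0.12. There was 1 call (TEX10), against 1.32% of all genes called lower, and 3 with the block, against 10.4%. MRPL50, a protein of the mitochondrial ribosome, had 2503, 2818 and 2702 counts against 2353, 2210 and 1873, a log2 fold change of −0.31 (SE 0.077, edgeR adjusted p = 0.064). FAM120A, an RNA-binding protein with 49391 counts in all, was at −0.02. Of 9 zinc finger and other transcription factors, 8 were below 0, with a median of −0.21. There were 2 calls and 4 with the block, against the same 1.32 and 10.4% of all genes. ZNF189 was at −0.18 with groups that did not overlap, and BARX1, with 77 counts in all, at −0.56 with groups that did.

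Among 12 genes of metabolism and transport, 10 were below 0, with a median of −0.18. There were 2 calls, against 1.32% of all genes called lower, and 5 with the block, against 10.4%. HSD17B3, which reduces androstenedione to testosterone and is best known from the testis, had the lowest log2 fold change of all members, −0.89 (SE 0.283). It rested on 19, 25 and 16 counts against 10, 12 and 10, and it was tested without reaching the threshold (edgeR adjusted p = 0.14). NIPSNAP3A, the neighbour of NIPSNAP3B, had 1750, 1693 and 1595 counts against 1475, 1228 and 1195 and a log2 fold change of −0.36 (edgeR adjusted p = 0.057). CTSV, a lysosomal cathepsin, was among the few members with higher counts in libraries labelled H295R-PM-Ptc+, at 0.18 (SE 0.123) with groups that did not overlap, and at 0.08 without H295R replicate 3. HIATL1, a transporter-like gene with the highest level per kilobase of this list, was at −0.09.

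Of 10 cytoskeleton, cilium and trafficking genes 7 were below 0, with a median of −0.09. There were 0 calls, against 1.32% of all genes called lower, and 4 with the block, against 10.4%. PTPDC1, a phosphatase gene linked to cilia, had 690, 906 and 759 counts against 587, 627 and 546 and a log2 fold change of −0.41 (SE 0.097, edgeR adjusted p = 0.056). INVS, which is needed for left-right patterning and acts at the primary cilium, was at −0.24, and ANKS6, a partner of it, at −0.08. CCDC180 was at 0.31 with overlapping groups. Of 10 cell surface and signalling genes 5 were below 0, with a median of −0.07 and 0 calls. With the block 3 were called lower and 1 higher, against 10.4 and 12.1% of all genes. MURC, a caveolar protein of muscle, was at −0.54 on 343 counts, and GABBR2, a subunit of the GABA-B receptor, at −0.24 with overlapping groups. SUSD3 was at 0.55 on 166 counts with overlapping groups, at 1.41 without H295R replicate 1 and at 0.15 without H295R-PM-Ptc+ replicate 1.

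**Figure D4:**
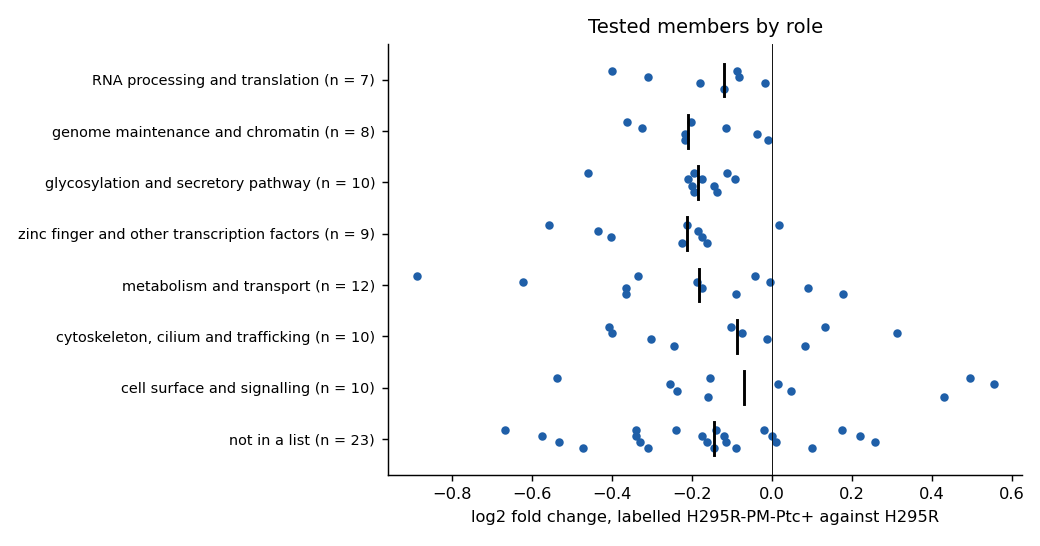
Log2 fold change (x axis) of the 89 tested members by role (y axis), with 1 point per gene and a bar at the median of each group. The medians run from −0.21 for transcription factors and genome maintenance to −0.07 for cell surface and signalling genes, where points lie on both sides of 0.

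GRIN3A, a subunit of NMDA-type glutamate receptors, lay in the other direction. It had 5525, 7854 and 7338 counts in the libraries labelled H295R and 7240, 10282 and 9974 in those labelled H295R-PM-Ptc+, or 279 ± 41.9 against 376 ± 80.7 CPM (SD, n = 3 each). The groups overlapped, since replicate 1 of H295R-PM-Ptc+ lay below replicates 2 and 3 of H295R, yet in each same-numbered pair the library labelled H295R-PM-Ptc+ was higher. The log2 fold change was 0.43 (SE 0.167, edgeR adjusted p = 0.23), and with the replicate block 0.42 (SE 0.048, adjusted p = 1.4e-05). PPP3R2, a calcineurin subunit of the testis, lies within GRIN3A on the same strand and had 1, 15 and 9 against 7, 16 and 12 counts, so its 0.49 cannot be separated from reads of GRIN3A. The 2 neighbours of GRIN3A by position, RNF20 at −0.22 and RP11-82L2.1 at −0.53, were on the other side of 0. Leaving GRIN3A out moved the difference between the groups in the median shift from −0.171 to −0.175.

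The head-to-head pairs, 4 of whose spacers are shown above, stood below 0 on both sides in all 6 cases. Of all members tested 80.9% were below 0, and the members were chosen on this contrast, so nothing is read from this count. Whether paired genes moved together more than other members was not tested. TSTD2 and NCBP1, the latter a subunit of the nuclear cap-binding complex, are 50 bases apart and had log2 fold changes of −0.19 and −0.18. ALG2 and SEC61B, 107 bases apart, had −0.14 and −0.20. ERP44 and INVS, with 215 bases between them, had −0.20 and −0.24, and MRPL50 and ZNF189, with 258, had −0.31 and −0.18. The other two pairs were TMEM246 with RNF20 at −0.20 and −0.22, and the sparse RP11-60I3.5 with STX17 at −0.34 and −0.11. The spacer of TSTD2 and NCBP1 held CCGGAAG, and those of ERP44 with INVS, of MRPL50 with ZNF189 and of TMEM246 with RNF20 held CCAAT.

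Promoters were a property that the choice of members did not use. For 62 members a RefSeq promoter of 300 bases (250 before the start and 50 after it, GRCh38.p14) was found by symbol or synonym. Their median GC content was 68.5%, and 55 of them, 88.7%, were like a CpG island (GC over 50% and a CpG ratio over 0.6), against 46.8% of all 27305 promoters of the table and 78.6% of the 10517 of tested genes. CCAAT on either strand was found in 22, or 35.5%, against 35.7% of all promoters and 36.9% of those of tested genes. CCGGAAG was found in 8 (12.9% against 10.7 and 18.2%), TATAAA in 4 (6.45% against 11.95 and 5.65%) and TTTCCCGC in 2, FANCC and ZNF367 (3.23% against 1.66 and 2.58%). The GLI motif GACCACCCA, through which the Hedgehog pathway acts, was in 0 of the 62 and in 0.249% of all promoters and 0.200% of those of tested genes. None of the 5 motifs contains another on either strand. The 250 bases shown for ZNF367 hold CCAAT on both strands and the E2F core, and those shown for GRIN3A hold no match to any of the 5 motifs. A match is a string of letters and does not show that a factor binds there.

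Low counts and overlapping genes bear on some members. All 90 had counts in each library, 25 of them over 10000 counts in all and 13 under 100. RP11-240L7.4, with 63 counts, was too low for the count filter and was not tested. Just inside the minimum of 60 counts were PPP3R2 with 60 and RP11-165J3.6 with 64, the latter at a log2 fold change of 0.01, and just under it CYCSP24 with 58, also at 0.01, RPS2P35 with 57 and UPF3AP3 with 38. The 14 tested clone-named members had a median of −0.19 with 10 below 0, and the 75 with a symbol −0.17 with 62 below 0. On their own strand 20 members overlapped another annotated gene and on the other strand 39, while 38 overlapped none. RP11-92C4.6, at −0.58, lay within the span of COL15A1 on its other strand, whereas RP11-82L2.1, at −0.53, overlapped no gene. The genes left out by name were similar in direction, as 8 of the 9 tested were below 0 with a median of −0.30.

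A comparison that the choice of members did not use is that of replicate 1 of both groups with replicates 2 and 3, which carry the second principal component. With edgeR and the group as a second term, 18 of 89 members were lower in replicate 1 and 9 were higher at an adjusted p under 0.05, against 14.8 and 11.5% of all genes. The members lay on both sides of 0 here, 48 below and 41 above, with a median log2 fold change of −0.06. Without H295R replicate 1 the calls were 11 and 1, against 7.38 and 2.43% of all genes. None of the 5 members called between the groups was called here with all 6 libraries. The fit between the groups had no replicate term, so a shift of replicate 1 widened its spread and made a call there less likely. Nothing is therefore read from this lack of overlap.

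Other members differed here. PPP3R2, on few counts, had the largest log2 fold change in size at −1.71 (SE 0.517), and RALGAPA1P, a pseudogene within FSD1L, was at −0.70. ZNF462, a zinc finger protein of the far edge, had 64.7 and 61.8 CPM in replicate 1 of the libraries labelled H295R and H295R-PM-Ptc+, and 92.5 to 103.7 CPM in the other 4, a log2 fold change of −0.64 (SE 0.061, edgeR adjusted p = 7.3e-06). SMC2 was at −0.44 and GRIN3A at −0.48, with replicate 1 the lowest library of each group in both. GABBR2 and CENPP were both at −0.39 and ERCC6L2 at −0.33. In the other direction, NINJ1, a protein of membrane rupture in dying cells, had 53.7 and 45.1 CPM in replicate 1 and 34.4 to 41.4 CPM in the other 4, a log2 fold change of 0.37 (SE 0.071, edgeR adjusted p = 0.0016). C9orf89, its neighbour, was at 0.36, NANS at 0.25 and SEC61B at 0.24. SUSD3 had 42 and 50 counts in replicate 1 and 12 to 29 in the others, at 1.30 (SE 0.261). By role, 7 of 8 genes of genome maintenance were below 0. Against 14.8 and 11.5% of all genes, edgeR called 4 of the 8 lower in replicate 1 and 0 higher. Of 10 genes of glycosylation and the secretory pathway it called 1 lower and 2 higher, where 3 were below 0, and the difference between the lists was not tested.

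**Figure D5:**
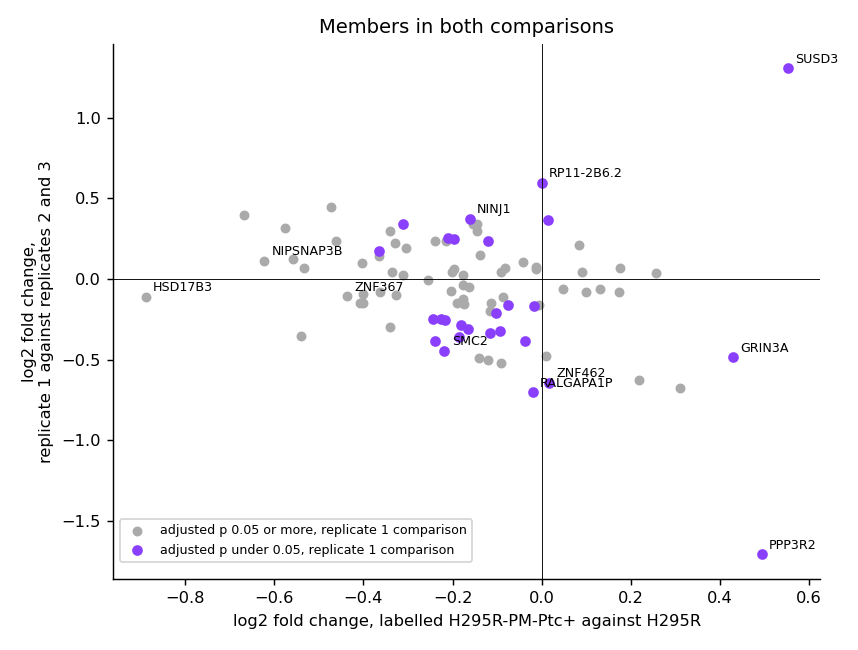
Log2 fold change between the groups (x axis) and of replicate 1 against replicates 2 and 3 (y axis) for the 89 tested members, with 1 point per gene and purple for an adjusted p under 0.05 in the second comparison. Most points lie left of 0, from −0.89 to 0.55, and spread over both signs on the y axis, with GRIN3A to the right at 0.43 and −0.48.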

How the data were processed

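RNA from 3 replicates of H295R and 3 of H295R-PM-Ptc+ was read in pairs from stranded libraries. The authors mapped the reads to hg38 with STAR 2.4.0a, per the submitters' processing notes, and counted primary alignments per gene name and by strand with featureCounts (Subread 1.5.0-p3 in the same notes) on Ensembl release 76. The deposited values are raw counts, with 1 column per library and no filter. The labels name a total RNA kit and polyA RNA, the methods an mRNA kit.

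Members were taken by chromosome, position, summed count of at least 60 and the names left out. The members, the role lists and the window were chosen with earlier results of these data known. Counts were scaled by TMM and tested in R 4.3.3 with the quasi-likelihood functions of edgeR 4.0.16 (genes kept by filterByExpr, two-sided, group alone, Benjamini-Hochberg adjustment over 16710 genes). CPM used TMM-scaled library sizes, and log2 CPM for the shift of each library a prior count of 2. Nothing states that replicates were separate cultures, so p-values measure the spread between these samples, which may be technical. After subtracting group means, log2 CPM correlated across genes at 0.497, 0.307 and 0.228 for libraries with the same replicate number, which also share a code in the column names, and at −0.352 to 0.150 for the others, so the number was taken to pair the libraries and was entered as a block in an alternative. The comparison of replicate 1 with replicates 2 and 3 was added after seeing the data, as was the fit without replicate 1 of both groups.

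Genes named were the 12 lowest and 8 highest log2 fold changes among tested members, the 3 members on each side of PTCH1, the 2 with the highest CPM per kilobase in each role list, the first and last members with the 3 nearest tested genes beyond each edge, and the 3 smallest members and 3 rows just under 60 counts. TEX10, NIPSNAP3A, MRPL50, XPA and the other members given beside them, among them the head-to-head pairs and those of the replicate 1 comparison, were added after their values were seen. The ETS, CCAAT and E2F motifs were also added later. Promoters came from RefSeq on GRCh38.p14 and spacers from hg38, and of 65 members with the same symbol in GENCODE v44, 64 had an end within 1000 bases of the deposited one. Alternatives were DESeq2 1.42.0, its size factors, limma-voom (limma 3.58.1), all genes unfiltered, a minimum of 10 counts per gene and library, the block, other scalings and a prior count of 0.5 for the shift, and leaving out each library. Each test was first tried on simulated counts. Python 3.11.15 with pandas 2.3.3 and matplotlib 3.10.9 served for tables and plots.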

Additional observations from a re-analysis of the deposited data

How the results depend on the processing

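The median log2 fold change of the members stayed between −0.19 and −0.14 under every alternative run, and the difference between the groups in their median shift between −0.17 and −0.16. The number called lower, 5, was 4 with limma-voom, 4 with at least 10 counts in every library, 7 with no filter on low counts, 9 with DESeq2, 36 with the replicate block and 20 without replicate 1 of both groups, and 0 to 7 when each library was left out in turn. The number called higher was 0, against 2.42% of all genes. It was 1 with no filter on low counts (698 of 30966 genes), 1 with the replicate block (12.1%) and 1 without replicate 1 of both groups (6.67%). When each library was left out it was 0 to 1, against 0.943 to 3.1% of all genes. GRIN3A was the member called higher with the block. Pairing by replicate number changed these calls and moved no median by more than 0.01. In the comparison of replicate 1 with replicates 2 and 3, the 18 lower calls ranged from 11 to 16 and the 9 higher calls from 1 to 10 when each library was left out, against 7.38 to 14.7% and 2.43 to 10.7% of all genes. The causes were not tested. Of 502 values of named members under the alternatives, 498 lay within 1 SE of the reported value. All alternatives used the same 6 libraries or part of them, which leaves little room for larger moves. Nothing is therefore read from this count. The values of CCDC180, CENPP, FAM120A, PPP3R2, RP11-165J3.6, RP11-526D8.11, ZNF322P1 and ZNF462, none of which passed a test between the groups, crossed 0 in at least 1 alternative. Depth limits the 13 members under 100 counts, where a few reads move a library.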
